A study of Arabidopsis thaliana with 12 samples.

Results

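The genes described here mark mitochondrial stress and alternative respiration in *Arabidopsis*. They are 9 of the 23784 genes in the deposited tables and were chosen by name: the alternative oxidases *AOX1A* (AT3G22370), *AOX1B* (AT3G22360) and *AOX1D* (AT1G32350), the alternative NAD(P)H dehydrogenases *NDA2* (AT2G29990) and *NDB2* (AT4G05020), the stress markers *UPOX* (AT2G21640) and *UGT74E2* (AT1G05680), and the transcription factors *NAC013* (AT1G32870) and *NAC017* (AT1G34190). The choice was made with earlier results of these data known. All 9 had a row in the tables, and 8 had enough counts to be tested. RNA-seq was done on aerial parts of seedlings at the age of 2 weeks, kept in long days (16 h light, 8 h dark), with 20 to 30 seedlings pooled per sample and 3 independent samples per genotype. The *quintuple* mutant lacks *CBP60b*, *c*, *d*, *e* and *f*, the *octuple* mutant carries the same mutations together with *eds1;pad4;ndr1*, the *epn* mutant carries *eds1;pad4;ndr1* alone, and WT is Columbia-0. CBP60 proteins are calmodulin-binding transcription regulators, and EDS1, PAD4 and NDR1 are components of canonical effector-triggered immunity (ETI). *quintuple* plants die at about the age of sampling, which limits them as a model of the mutations alone, and which of the *quintuple* lines was sequenced is not stated.

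Plant mitochondria hold a branched respiratory chain. Alternative oxidase (AOX) takes electrons from ubiquinone directly to oxygen, and the alternative NAD(P)H dehydrogenases feed electrons into ubiquinone, so that both bypass steps that pump protons. When the cytochrome pathway is inhibited or reactive oxygen species build up, a retrograde signal from mitochondria to the nucleus induces genes of this bypass. NAC017 and NAC013 are membrane-bound transcription factors of this signal, are released to the nucleus under stress and bind the mitochondrial dysfunction motif in the promoters of their targets. *AOX1A* and *UPOX*, a gene of unknown biochemical function that responds strongly to oxidative stress, are the markers used most often, and *UGT74E2* encodes a glycosyltransferase that acts on the auxin indole-3-butyric acid.

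The mitochondrial dysfunction motif is shown first because it is the feature by which these genes are usually grouped. Both strands of the 1000 bases before each coding start were searched in 27443 RefSeq genes (TAIR10.1) for the letters CTTG followed, after any 5 bases, by CAAG or CACG, and overlapping matches were allowed. A match was found in 6 of the 9 genes (*AOX1A*, *AOX1B*, *NDB2*, *UPOX*, *UGT74E2* and *NAC017*), against 4.39% of all promoters of that length. The motif was first described from genes of this kind, so the count is a description. Windows of 29 bases are given 5′ to 3′ on the strand of the gene, with the motif in capitals, and start with the match shared by *AOX1A* and *UPOX*.
AOX1A: tcttccatCTTGCTCTCCAAGaaaaatct
UPOX: tttagtaaCTTGCTCTCCAAGgagatcta
NDB2: cgatctggCTTGGCCACCAAGattgtttg
UGT74E2: ccgcacatCTTGGTCGCCACGgaacatag
NAC017: acctctgtCGTGTCAGACAAGaatgttgg
The *AOX1A* window lies at chr3:7906537-7906565 (plus strand), in an exon of the 5′ UTR. The *UPOX* window at chr2:9254319-9254347 (plus strand) and the *NDB2* window at chr4:2572340-2572368 (plus strand) lie before the annotated transcript start. The *UGT74E2* window at chr1:1704805-1704833 (minus strand) is in an exon of the 5′ UTR, and the *NAC017* window at chr1:12451287-12451315 (plus strand) lies before the transcript start, with its motif on the other strand. *AOX1A* and *UPOX* held the same 13 bases, CTTGCTCTCCAAG, which occurred in 7 of the 27443 promoters. *AOX1D*, *NDA2* and *NAC013* had no match in this window. Only 4 of the 9 genes (*AOX1B*, *NDB2*, *UPOX* and *NAC017*) had a match when the 1000 bases before the annotated transcript start were searched instead. The letters TTGACC or TTGACT, a core bound by WRKY transcription factors, were present in 9 of 9 genes and in 67.2% of all promoters, searched in the same way.

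Library totals lay between 38698646 and 44294404 counted fragments. The first principal component held 72.5% of the variance, and replicate 3 of every genotype stood apart from replicates 1 and 2 on the second, which held 12.0%. Levels are given as CPM, counts relative to library size scaled with edgeR's TMM factors, or as FPKM where genes of different length are compared. To be called, a gene had to differ 2-fold or more with an adjusted p (Benjamini-Hochberg) under 0.05 in edgeR's quasi-likelihood test on the 6 libraries of a comparison. The mutated genes were transcribed in every library. *EDS1* averaged 101 ± 26.0 CPM in *quintuple*, 7.40 ± 1.48 in *octuple*, 5.03 ± 1.33 in *epn* and 21.1 ± 2.85 in WT (SD, n = 3 each), and *PAD4* averaged 102 ± 27.7, 3.34 ± 0.296, 1.33 ± 0.168 and 6.49 ± 3.03 CPM in these genotypes. *EDS1* and *PAD4* were thus lower in *octuple* than in *quintuple* and lower in *epn* than in WT, in every library. Transcripts of *NDR1* and of *CBP60b* to *CBP60f* remained at 1.02 CPM or more in all 12 libraries, so no absence of these transcripts checks the labels. *CBP60c* was lower in *quintuple* and *octuple*, at 26.8 to 35.1 CPM, than in *epn* and WT, at 42.8 to 51.9 CPM. *CBP60b* was at 154 to 248 CPM in *quintuple* and 41.7 to 44.1 CPM in WT.

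In *quintuple*-vs-WT, 5 of the 8 tested genes rose, 1 fell, and *NAC013* and *NAC017* passed the adjusted p with less than a 2-fold rise (29.3% of all genes passed it with a rise of any size). Of all 19691 genes tested, 39.1% were called in this comparison, 19.5% higher and 19.5% lower, so a call in *quintuple* alone sets no gene apart. Their median log2 fold change was 2.15, against 0.00 over all genes. With library size alone as the scaling, the median of all genes moved to 0.27 and the split of calls to 24.7% higher and 15.0% lower. The log2 fold changes of the 5 genes that rose were between 2.11 and 8.22. Because the samples are bulk tissue, more RNA per cell cannot be told apart from a larger share of cells that hold it.

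*AOX1A*, the main stress-inducible alternative oxidase of leaves, lies at chr3:7906521-7908746 on the plus strand and has 4 exons. It was at 110.5, 74.3 and 94.6 CPM in *quintuple*, 30.0, 26.3 and 26.5 CPM in *octuple*, 18.7, 21.2 and 22.3 CPM in *epn*, and 22.6, 18.0 and 20.2 CPM in WT. All 3 *quintuple* libraries stood above every other library, and the *octuple* libraries, though far lower, were all above those of *epn* and WT, which overlapped. The log2 fold change in *quintuple*-vs-WT was 2.20 (SE 0.19, edgeR adjusted p = 0.000369). In *octuple*-vs-WT it was 0.45 (SE 0.12, edgeR adjusted p = 0.156), which was not called.

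*AOX1D* encodes a second stress-responsive alternative oxidase (chr1:11666886-11668690, minus strand, 3 exons). It gave 1009, 1045 and 1108 counts in *quintuple*, 282, 70 and 97 counts in *octuple*, 2, 5 and 0 counts in *epn*, and 7, 1 and 1 counts in WT. *quintuple* and *octuple* did not overlap with each other or with the remaining genotypes, and among the *octuple* libraries replicate 1 was the highest. From the summed counts and library sizes, without TMM factors, *AOX1D* was 375 times higher in *quintuple* than in WT, with an exact 95% interval of 197 to 821 that covers counting error only, and 48.2 times higher in *octuple* than in WT (25.2 to 106). The ratios of mean CPM, which hold TMM factors, were 304 and 46.2. It was the gene with the largest rise of the 8, with a log2 fold change of 8.22 (SE 0.56, edgeR adjusted p = 0.000231) in *quintuple*-vs-WT. This value ranged from 7.77 to 9.72 over the fits that left out 1 library, with the highest without WT replicate 1, which held 7 of the 9 WT counts. No exonic 50-base stretch of *AOX1D*, or of *AOX1A* and *AOX1B*, lay in another gene.

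*AOX1B* lies beside *AOX1A* in the genome (chr3:7904097-7905576, plus strand) and is known mainly from flowers. It had 4 counts in WT replicate 1, 1 count in *quintuple* replicate 1 and 0 counts in the other 10 libraries. A count of 0 allows up to 3 counts, which is 0.0677 to 0.0762 CPM in these 10 libraries by total counts without TMM factors, and no comparison was made for this gene. Summed over all 5 alternative oxidase genes, AOX transcripts reached 83.9, 65.0 and 85.6 FPKM in *quintuple*, 20.8, 14.9 and 18.0 FPKM in *octuple*, 10.9, 11.8 and 13.7 FPKM in *epn*, and 12.5, 9.90 and 12.2 FPKM in WT. *AOX1D* made up 22.6% ± 3.61 of this sum in *quintuple*, 11.8% ± 7.55 in *octuple*, 0.312% ± 0.318 in *epn* and 0.385% ± 0.423 in WT (SD, n = 3 each). *AOX1A* remained the larger part in every library, at 71.8% or more. The *AOX1D* level in *quintuple*, 17.4 ± 0.269 FPKM, was above the *AOX1A* level in WT, 10.9 ± 1.45 FPKM, in every library of each genotype.

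**Figure D1:**
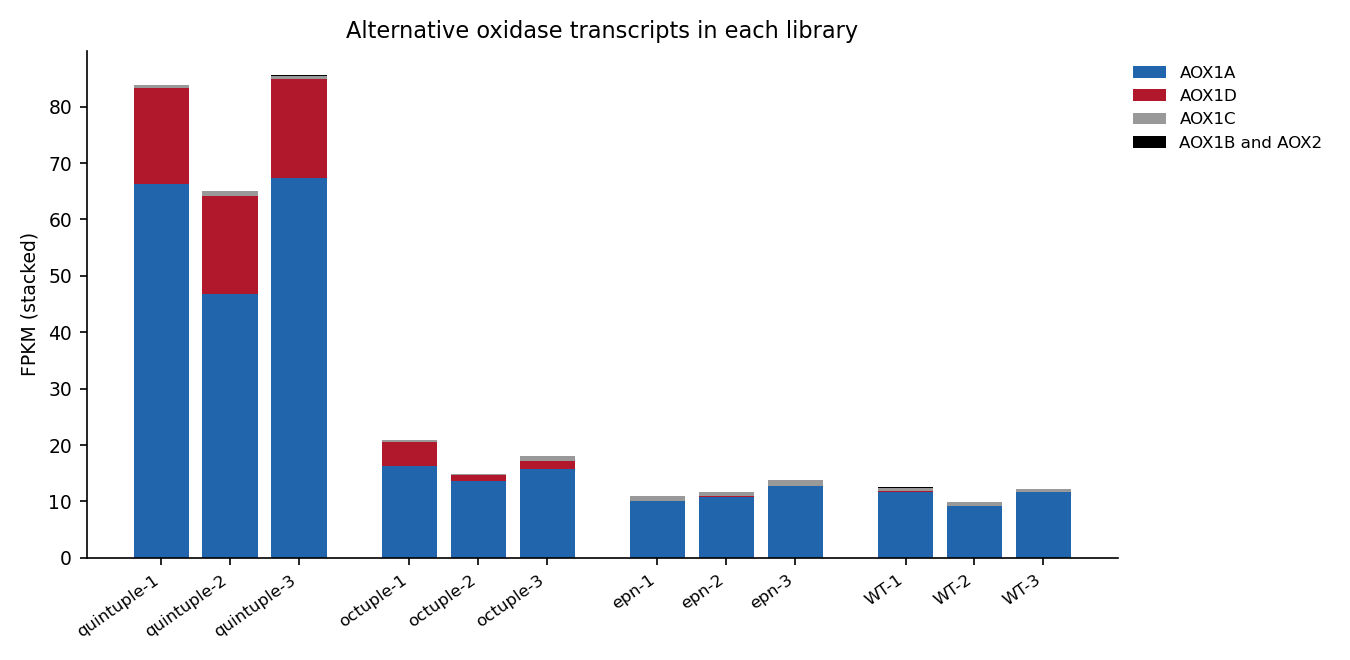
Stacked FPKM of the alternative oxidase genes in each of the 12 libraries, with *AOX1A* in blue, *AOX1D* in red, *AOX1C* in grey, and *AOX1B* and *AOX2* in black. The *quintuple* bars reach 65.0 to 85.6 FPKM with a visible *AOX1D* part, while the *epn* and WT bars stay between 9.90 and 13.7 FPKM and consist almost wholly of *AOX1A*.

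*NDA2*, an alternative dehydrogenase on the inner face of the inner membrane, lies at chr2:12793320-12796085 (minus strand). It was at 32.0, 30.6 and 44.1 CPM in *quintuple*, 10.9, 5.57 and 10.1 CPM in *octuple*, 5.67, 6.24 and 6.42 CPM in *epn*, and 11.0, 8.34 and 5.42 CPM in WT. *quintuple* stood above all other libraries, and the other 3 genotypes overlapped. The log2 fold change in *quintuple*-vs-WT was 2.11 (SE 0.30, edgeR adjusted p = 0.00157).

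*NDB2*, an alternative NADH dehydrogenase on the outer face, is often induced together with *AOX1A* and lies at chr4:2572427-2576599 (plus strand, 11 exons). It was at 56.3, 42.9 and 61.9 CPM in *quintuple*, 15.0, 12.5 and 19.4 CPM in *octuple*, 13.3, 13.5 and 9.65 CPM in *epn*, and 14.2, 10.3 and 8.66 CPM in WT. Again only *quintuple* was apart from the rest. The log2 fold change in *quintuple*-vs-WT was 2.28 (SE 0.24, edgeR adjusted p = 0.000609), close in size to those of *AOX1A* and *NDA2*.

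Over all 7 alternative NAD(P)H dehydrogenase genes, *NDA2* and *NDB2* together took 49.2%, 49.8% and 78.8% of the summed FPKM in *quintuple*, 13.5%, 10.4% and 26.7% in *octuple*, 7.76%, 10.0% and 14.9% in *epn*, and 10.9%, 9.93% and 14.1% in WT. The sum itself overlapped among genotypes, at 72.4 to 82.8 FPKM in *quintuple* and 44.8 to 94.3 FPKM in WT, so the makeup of the family differed more than its total. *NDB1*, a calcium-dependent NADPH dehydrogenase, averaged 7.55 ± 1.47 CPM in *quintuple*, 25.4 ± 5.93 in *octuple*, 31.5 ± 3.15 in *epn* and 27.4 ± 2.29 in WT and fell in *quintuple*-vs-WT with a log2 fold change of -1.86 (SE 0.18, edgeR adjusted p = 0.00049). *NDA1*, which is controlled by light and the clock, moved with replicate 3: it gave 20 counts in *quintuple*, 528 in *octuple*, 553 in *epn* and 570 in WT in that replicate, against 1364 to 4740 counts in replicates 1 and 2. The part of this split in the shares of replicate 3 was not tested. In replicates 1 and 2 *NDA2* and *NDB2* together took 49.2% and 49.8% in *quintuple* and 10.9% and 9.93% in WT.

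**Figure D2:**
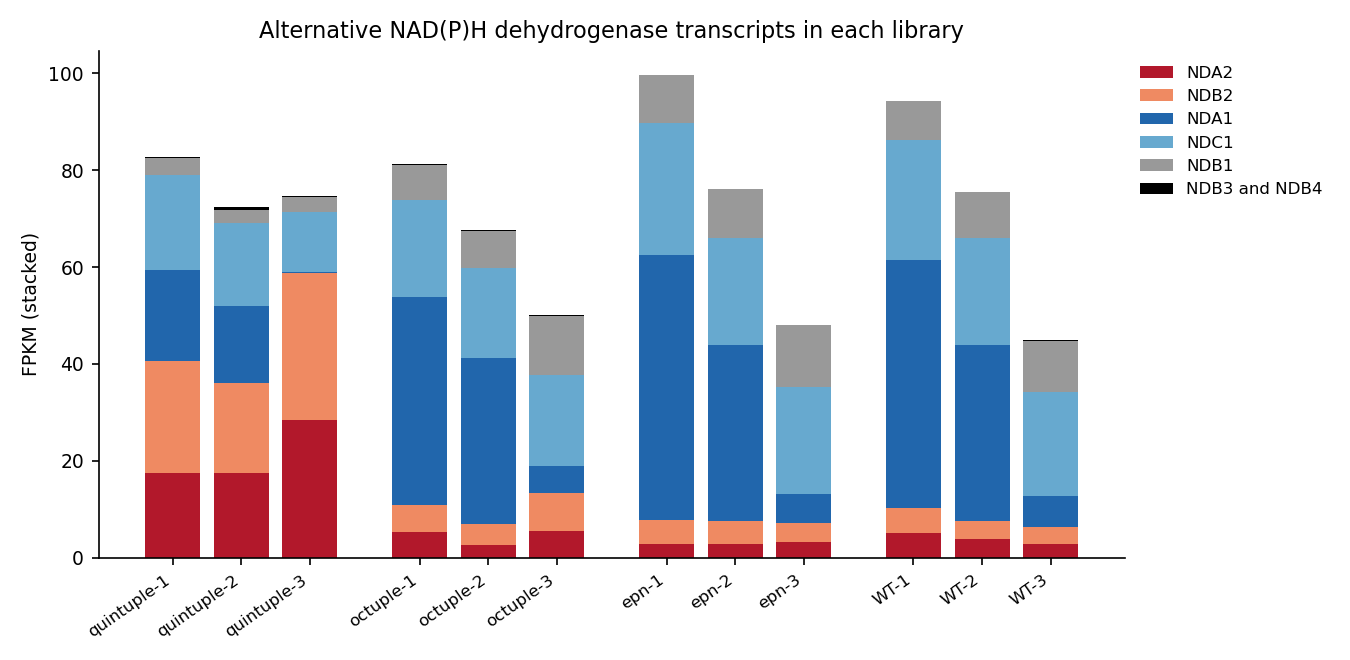
Stacked FPKM of the 7 alternative NAD(P)H dehydrogenase genes in each of the 12 libraries, with *NDA2* and *NDB2* at the base in red and orange. *NDA2* and *NDB2* take 49.2% to 78.8% of each *quintuple* bar and 7.76% to 26.7% of every other bar, and the *NDA1* part (dark blue) is small in all 4 libraries of replicate 3.

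*UPOX* (chr2:9254378-9255743, plus strand, 3 exons) moved against the other markers. It gave 43, 63 and 43 counts in *quintuple*, 131, 120 and 120 counts in *octuple*, 114, 114 and 139 counts in *epn*, and 67, 118 and 145 counts in WT. In CPM the highest *quintuple* library, at 1.44, was below the lowest WT library, at 1.74, while *octuple*, *epn* and WT overlapped. The log2 fold change in *quintuple*-vs-WT was -1.29 (SE 0.38, edgeR adjusted p = 0.0252), a fall. This call ended in 4 of the 6 fits that left out 1 library, with adjusted p of 0.0738 without *quintuple* replicate 1, 0.0620 without *quintuple* replicate 3, 0.0724 without WT replicate 2 and 0.0715 without WT replicate 3 (edgeR), and the direction held in each. It also ended with library size alone as the scaling, at a log2 fold change of -1.05 against a shift of all genes of 0.27.

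*UGT74E2* (chr1:1703002-1704838, minus strand) was low throughout. It gave 131, 60 and 215 counts in *quintuple*, 16, 2 and 18 counts in *octuple*, 33, 52 and 28 counts in *epn*, and 31, 22 and 15 counts in WT. All *quintuple* libraries were the highest, at 1.37 CPM or more, but *epn* replicate 2 came close at 1.31 CPM, and *octuple* lay below *epn* in every library. The log2 fold change was 2.35 in *quintuple*-vs-WT (SE 0.53, edgeR adjusted p = 0.00958). Of its exonic 50-base stretches, 0.664% also lay elsewhere.

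Both transcription factors passed the adjusted p in *quintuple*-vs-WT with less than a 2-fold difference under TMM scaling, and whether they were called depended on the scaling. *NAC017* (chr1:12451405-12454542, plus strand) was at 66.5, 74.9 and 79.7 CPM in *quintuple*, 42.0, 40.0 and 35.4 CPM in *octuple*, 29.6, 41.7 and 43.6 CPM in *epn*, and 37.0, 38.1 and 44.9 CPM in WT. *quintuple* was above all other libraries and the rest overlapped, with a log2 fold change in *quintuple*-vs-WT of 0.88 (SE 0.14, edgeR adjusted p = 0.00245). *NAC013* (chr1:11911631-11913947, plus strand) was at 13.8, 12.2 and 20.5 CPM in *quintuple*, 7.67, 10.6 and 11.4 CPM in *octuple*, 8.50, 6.49 and 9.95 CPM in *epn*, and 7.75, 7.61 and 10.9 CPM in WT. Replicate 3 was the highest library of *NAC013* in every genotype, and the log2 fold change in *quintuple*-vs-WT was 0.82 (SE 0.26, edgeR adjusted p = 0.0330). With library size alone *NAC017* was at 1.147 and *NAC013* at 1.096, against a shift of all genes of 0.27, and both were called by edgeR (adjusted p = 0.00325 and 0.0247). The adjusted p of *NAC013* was not below the threshold in 4 of the 6 fits that left out 1 library, at 0.0553 without *quintuple* replicate 1, 0.0690 without *quintuple* replicate 3, 0.103 without WT replicate 1 and 0.105 without WT replicate 2 (edgeR). Those fits had no block. With the replicate number as a block and all 6 libraries *NAC013* was at 0.81 (SE 0.145, edgeR adjusted p = 0.00867), still less than 2-fold. *NAC013* overlaps the antisense gene AT1G32880 by 20 exonic bases, whose reads cannot be told apart because the strand setting of the counting is not given. Per length, *NAC017* was the more abundant, at 32.2 ± 5.67 FPKM in *quintuple* and 14.5 ± 2.60 FPKM in WT, against 9.18 ± 3.45 and 4.29 ± 1.25 FPKM for *NAC013* (SD, n = 3 each).

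**Figure D3:**
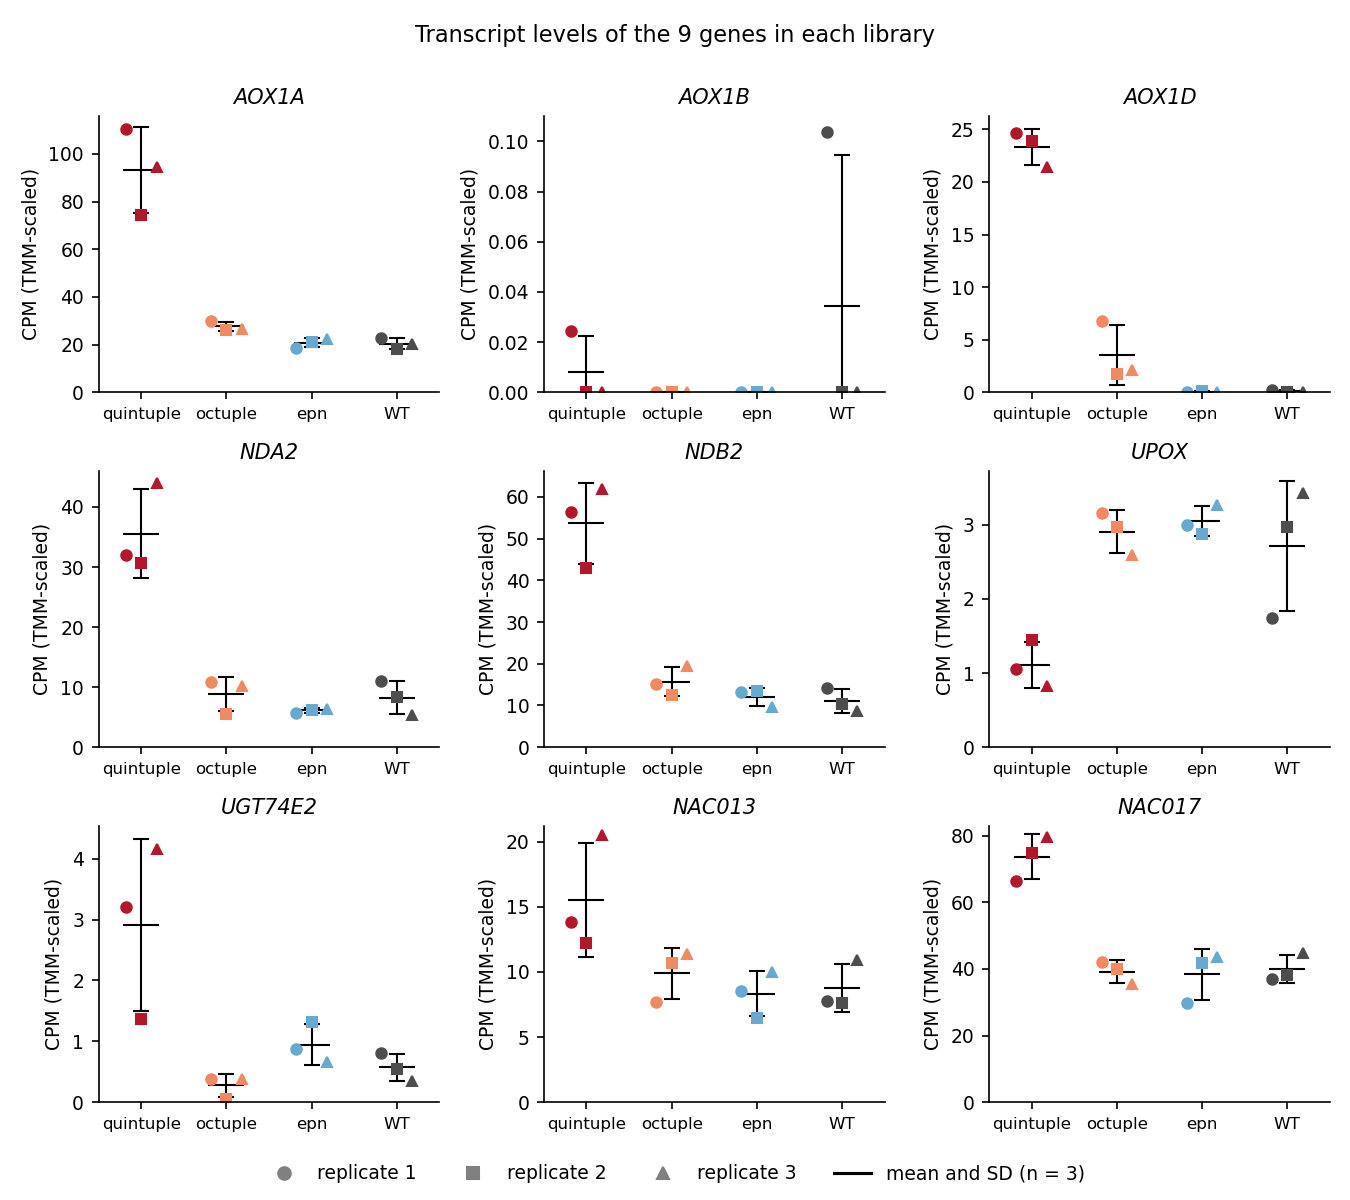
CPM of each of the 9 genes in the 12 libraries, with 1 panel per gene, genotypes along the horizontal axis, symbols for the replicate number, and bars for the mean and SD (n = 3). *quintuple* is the highest group for 7 genes and the lowest for *UPOX*, and *AOX1B* stays near 0 in every library.

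By FPKM the order of the genes differed between genotypes. In *quintuple* it ran from *AOX1A* (60.1 ± 11.6) to *NAC017* (32.2 ± 5.67), *NDB2* (24.0 ± 5.92), *NDA2* (21.1 ± 6.37), *AOX1D* (17.4 ± 0.269), *NAC013* (9.18 ± 3.45), *UGT74E2* (1.92 ± 1.05) and *UPOX* (1.70 ± 0.412). In WT *NAC017* (14.5 ± 2.60) came first, before *AOX1A* (10.9 ± 1.45), *NAC013* (4.29 ± 1.25), *NDB2* (4.05 ± 0.889), *NDA2* (3.98 ± 1.18), *UPOX* (3.53 ± 1.31), *UGT74E2* (0.304 ± 0.108) and *AOX1D* (0.0466 ± 0.0541). Neighbours from *NAC013* to *UPOX* in WT, and *NDB2* with *NDA2*, *NDA2* with *AOX1D* and *UGT74E2* with *UPOX* in *quintuple*, differed by less than their SD. *AOX1D* thus held the fifth place in *quintuple* and the last of the 8 in WT.

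The comparison *octuple*-vs-WT asks what remains of the *quintuple* state once EDS1, PAD4 and NDR1 are removed. Of the 8 tested genes only *AOX1D* rose, with a log2 fold change of 5.50 (SE 0.96, edgeR adjusted p = 0.0491), and 0 fell. Of all genes tested 1.93% were called, 1.78% higher and 0.151% lower, and 5.81% were called with the replicate number as a block. The call of *AOX1D* ended in each of the 6 fits that left out 1 library, with adjusted p between 0.0784 (without *octuple* replicate 3) and 0.187 (without WT replicate 2) and log2 fold changes of 4.60 to 7.02, although its counts did not overlap between the genotypes. The other 7 had log2 fold changes from -1.03 (*UGT74E2*, SE 0.73, edgeR adjusted p = 0.592) to 0.50 (*NDB2*, SE 0.24, edgeR adjusted p = 0.404). With the replicate number as a block *AOX1D* was at 5.57 (SE 0.41, edgeR adjusted p = 0.000329). *AOX1A* then passed the adjusted p at 0.45 (SE 0.083, edgeR adjusted p = 0.0146), less than 2-fold. The fits that left out libraries had no block. This comparison shares its WT libraries with *quintuple*-vs-WT.

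The comparison *octuple*-vs-*epn* sets the *cbp60* mutations against their own immune-deficient background. *AOX1D* was again the only gene called, at 5.84 (SE 0.99, edgeR adjusted p = 0.0360), where 2.42% of all genes were called, or 6.16% with the replicate number as a block. This call ended in 5 of the 6 fits without 1 library and held only without *octuple* replicate 3 (edgeR adjusted p = 0.0153), the others giving 0.0565 to 0.150. With the replicate number as a block *AOX1D* was at 5.70 (SE 0.69, edgeR adjusted p = 0.00171) and *AOX1A* at 0.40 (SE 0.13, edgeR adjusted p = 0.0814). By summed counts and library sizes, without TMM factors, *AOX1D* was 61.1 times higher in *octuple* than in *epn* (29.4 to 153). *AOX1A* was at 0.40 (SE 0.13, edgeR adjusted p = 0.202) and *UGT74E2* at -1.78 (SE 0.70, edgeR adjusted p = 0.305), and neither was called though their libraries did not overlap.

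In *octuple*-vs-*quintuple*, which differ by *eds1;pad4;ndr1*, 5 genes fell and 1 rose, and 31.5% of all genes were called, 16.7% higher and 14.9% lower (12.5% and 20.0% with library size alone, where the median of all genes moved to -0.24). The log2 fold changes were -1.73 for *AOX1A*, -2.69 for *AOX1D*, -1.98 for *NDA2*, -1.75 for *NDB2* and -3.36 for *UGT74E2*, with edgeR adjusted p from 0.0012 to 0.0111. *UPOX* rose by 1.42 (SE 0.30, edgeR adjusted p = 0.00945), and this call held in each fit that left out 1 library. *NAC017* fell by 0.88 on the log2 scale (SE 0.13, edgeR adjusted p = 0.00312), less than 2-fold (24.1% of all genes passed the adjusted p with a fall of any size). With library size alone it was called, at -1.16 (edgeR adjusted p = 0.00262) against a shift of all genes of -0.24, and *NAC013* had a value of -0.62 (SE 0.25, edgeR adjusted p = 0.0845). In summed counts over library sizes, without TMM factors, *AOX1D* in *octuple* stood at 0.128 of its level in *quintuple* (0.116 to 0.142, counting error only). Replicate 1 held 282 of the 449 *octuple* counts, and the log2 fold change was -3.56 without it and between -2.75 and -2.35 without any 1 of the other libraries.

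In *epn*-vs-WT, which tests the loss of EDS1, PAD4 and NDR1 in plants with intact *CBP60* genes, 0 of the 7 tested members were called. Their edgeR log2 fold changes lay between -0.43 (*NDA2*, SE 0.26) and 0.73 (*UGT74E2*, SE 0.46), with adjusted p of 1.00. Over all 18992 genes edgeR called 0%, with 419 genes at an unadjusted p below 0.05, while DESeq2 called 40 genes and edgeR with the replicate number as a block called 104, none of them members. *AOX1D* had too few counts for this test, with 7 in all of *epn* and 9 in all of WT.

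Whether the effect of the *cbp60* mutations depended on the background was tested as the difference of *octuple*-vs-*epn* and *quintuple*-vs-WT over all 12 libraries. Of the 8 tested genes 6 passed, against 31.7% of all genes, 17.6% with a positive and 14.1% with a negative difference (12.5% and 18.5% with library size alone). The difference was -1.79 for *AOX1A* (SE 0.22, edgeR adjusted p = 0.000376), -1.57 for *NDA2* (SE 0.41, edgeR adjusted p = 0.0158) and -1.92 for *NDB2* (SE 0.33, edgeR adjusted p = 0.00204), where the value in *octuple*-vs-*epn* was positive but smaller than that in *quintuple*-vs-WT. For *UGT74E2* it was -4.12 (SE 0.91, edgeR adjusted p = 0.00706), between values of opposite sign, -1.78 in *octuple*-vs-*epn* (not called) and 2.35 in *quintuple*-vs-WT. *NAC017* differed by -0.85 (SE 0.22, edgeR adjusted p = 0.0154), and *UPOX* by 1.22 (SE 0.41, edgeR adjusted p = 0.0426). For *AOX1D* the difference was -2.38 with a wide error (SE 1.43, edgeR adjusted p = 0.229), while limma on log2(FPKM + 1) gave -2.62 (adjusted p = 0.000743) and on log2(FPKM + 0.1) -3.06 (adjusted p = 0.00506), both past the threshold. *AOX1D* averaged 0.0359 FPKM in *epn* and 0.0466 in WT, below both added constants, which shrink the folds against these genotypes. With the replicate number as a block the *AOX1D* difference was -2.69 (SE 1.33, edgeR adjusted p = 0.128). For *NAC013* it was -0.58 (SE 0.36, edgeR adjusted p = 0.244). The *UPOX* difference was past the threshold in 2 of the 12 fits that left out 1 library (without *quintuple* replicate 2 and without WT replicate 1), with edgeR adjusted p of 0.0152 to 0.0915. Without replicate 3 of every genotype only *AOX1A*, *NDB2* and *UGT74E2* passed.

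**Figure D4:**
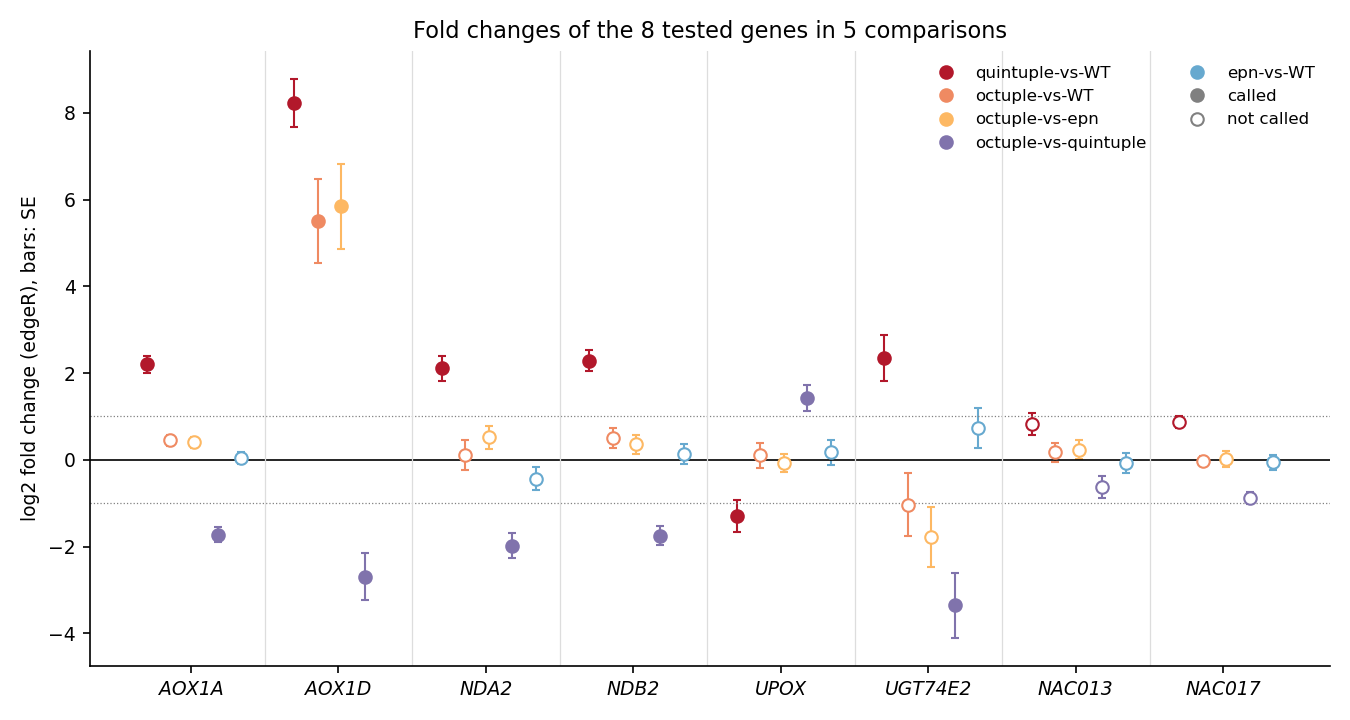
edgeR log2 fold changes of the 8 tested genes in 5 comparisons, with bars for the SE, filled symbols for called genes and dotted lines at a 2-fold change. For *AOX1A*, *NDA2* and *NDB2* the *quintuple*-vs-WT values lie between 2.11 and 2.28 while the *octuple*-vs-WT values lie between 0.10 and 0.50, and *AOX1D* is the gene called in *octuple*-vs-WT and *octuple*-vs-*epn*.

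The other genes of the pathway were read from lists written from general knowledge. These lists were chosen with earlier results of these data known, so their counts and medians are descriptions. Of 14 tested genes known to respond to mitochondrial dysfunction, 10 rose and 0 fell in *quintuple*-vs-WT (39.1% of all genes called), with a median log2 fold change of 2.69 against 0.00 for all genes. *AT2G41380*, a methyltransferase-family gene, averaged 41.2 ± 3.14 CPM in *quintuple*, 3.98 ± 2.66 in *octuple*, 1.96 ± 0.504 in *epn* and 1.33 ± 0.622 in WT, and rose by 4.96 on the log2 scale in *quintuple*-vs-WT (SE 0.37, edgeR adjusted p = 0.000287). *TIM17-1*, a component of the inner membrane import channel, averaged 30.2 ± 4.55 CPM in *quintuple*, 5.92 ± 2.91 in *octuple*, 1.09 ± 0.55 in *epn* and 1.12 ± 0.65 in WT, with a log2 fold change of 4.75 (SE 0.52, edgeR adjusted p = 0.000676). In *octuple*-vs-WT, where 1.93% of all genes were called, 0 of the 14 were called in the main fit, which had no block. Their median was 0.43, against -0.01 for all genes. *TIM17-1* did not overlap between these genotypes, at 3.88 to 9.26 CPM in *octuple* and 0.378 to 1.58 in WT. Overlap of the other genes of this list was not counted. In *octuple*-vs-*epn* only *OM66*, an ATPase of the outer membrane, was called, at 2.09 (2.42% of all genes called). Its levels were 5.10 to 8.63 CPM in *octuple*, 1.27 to 1.78 in *epn* and 3.19 to 6.55 in WT, so *octuple* overlapped WT. In *octuple*-vs-*quintuple* 11 of 14 fell and 0 rose, with a median of -1.94 against 0.02 for all genes, of which 14.9% fell and 16.7% rose.

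Of 11 tested regulators of retrograde signalling, 6 rose and 1 fell in *quintuple*-vs-WT (19.5% of all genes were called in each direction), with a median log2 fold change of 1.63 against 0.00 for all genes. *NAC016*, a close relative of *NAC017*, averaged 14.2 ± 2.98 CPM in *quintuple*, 1.36 ± 0.39 in *octuple*, 0.643 ± 0.5 in *epn* and 0.824 ± 1.11 in WT, and rose by 4.12 on the log2 scale in *quintuple*-vs-WT (SE 1.00, edgeR adjusted p = 0.0127). *WRKY63*, which activates *AOX1A* in *Arabidopsis*, had the other of the largest rises, 4.07 (SE 1.29, edgeR adjusted p = 0.0337), on counts of 30 to 160 in *quintuple*, 12 to 36 in *octuple*, 0 to 4 in *epn* and 0 to 12 in WT. *MYB29*, known as a negative regulator of *AOX1A*, fell by 1.88 on the log2 scale (SE 0.52, edgeR adjusted p = 0.0213), with 13.1 ± 7.66 CPM in *quintuple*, 36.7 ± 5.40 in *octuple*, 55.8 ± 20.5 in *epn* and 48.1 ± 12.2 in WT. *RCD1*, a protein that binds and restrains NAC013 and NAC017, rose by 1.63 (SE 0.26, edgeR adjusted p = 0.00256). In *octuple*-vs-WT and *octuple*-vs-*epn*, where 1.93% and 2.42% of all genes were called, 0 of the 11 were called by edgeR without the block. *WRKY15* was among them though its libraries did not overlap, at 18.8 to 30.8 CPM in *octuple*, 12.1 to 13.1 in *epn* and 10.2 to 14.2 in WT. Overlap of the other regulators was not counted. In *octuple*-vs-*quintuple* 5 fell and 1 rose (14.9% and 16.7% of all genes).

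Of 29 tested subunits of the cytochrome pathway and ATP synthase, 1 rose and 0 fell in *quintuple*-vs-WT, and the median log2 fold change was -0.26, against 0.00 for all genes. Most changes here were below 2-fold: 12 of the 29 passed the adjusted p alone in edgeR, against 56.9% of all genes, and 39.1% of all genes were called. The gene that rose was *AT5G25450*, which encodes a small subunit of complex III and averaged 36.7 ± 25.4 CPM in *quintuple*, 4.26 ± 1.35 in *octuple*, 1.12 ± 0.723 in *epn* and 1.43 ± 1.09 in WT, with a log2 fold change of 4.67 (SE 0.80, edgeR adjusted p = 0.00329). Of 11 other alternative respiration genes 2 rose and 1 fell, with a median of -0.27. *DIC1*, a dicarboxylate carrier of the inner membrane, averaged 212 ± 71.3 CPM in *quintuple*, 41.3 ± 18.7 in *octuple*, 19.1 ± 7.92 in *epn* and 25.9 ± 7.43 in WT, a log2 fold change of 3.03 in *quintuple*-vs-WT (SE 0.35, edgeR adjusted p = 0.000771). *NDB4* rose by 2.76 (SE 0.66, edgeR adjusted p = 0.0119) on very few counts, 13 to 44 in *quintuple* and 2 to 4 in WT. Of 11 mitochondrial chaperones and proteases 1 rose and 2 fell, 8 passed the adjusted p alone, and the median was -0.24. *HSP60-1* averaged 75.9 ± 6.56 CPM in *quintuple*, 138 ± 17.2 in *octuple*, 152 ± 8.57 in *epn* and 160.2 ± 23.1 in WT. The chaperonins *HSP60-1* and *HSP60-2* fell by 1.08 and 1.01 on the log2 scale (edgeR adjusted p = 0.00183 and 0.0113), and the small heat shock gene *HSP23.6* had 24 to 727 counts in *quintuple*, 0 in every *octuple* library and 0 to 4 in *epn* and WT.

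**Figure D5:**
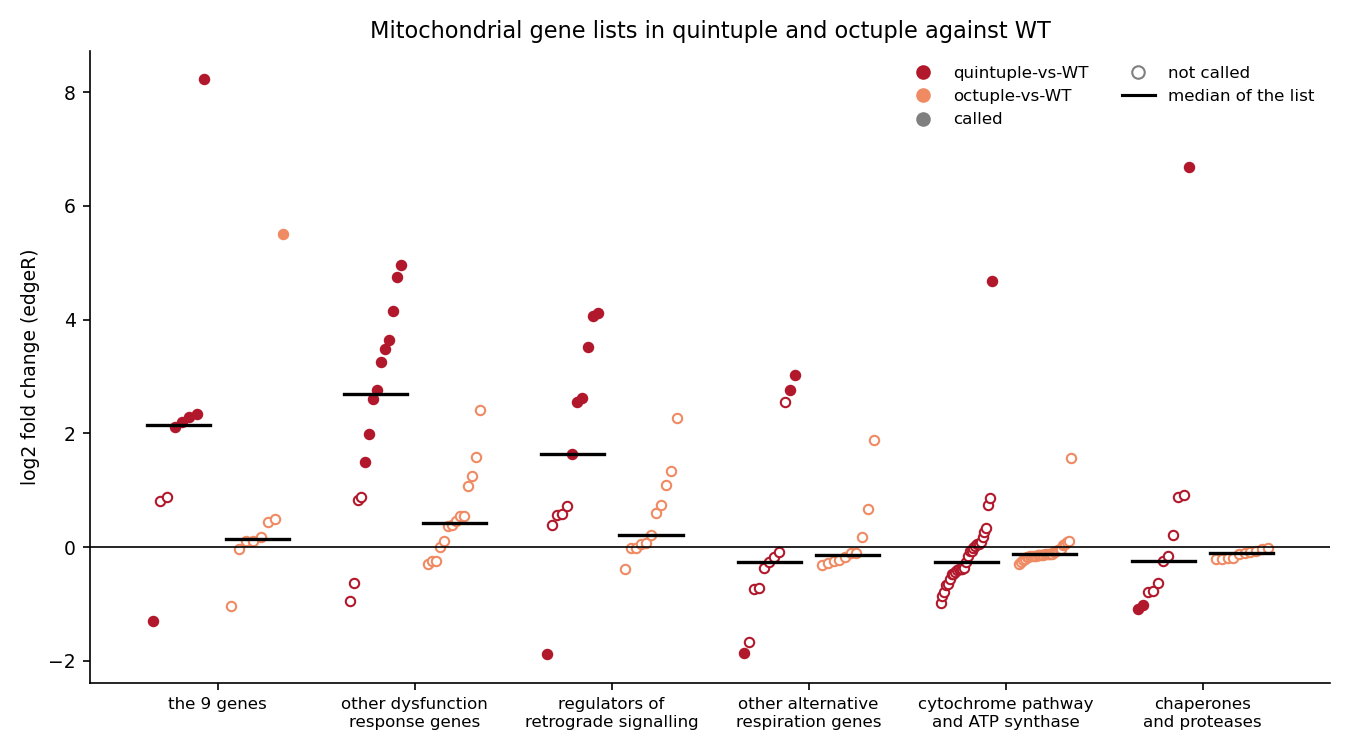
edgeR log2 fold changes of every tested gene in 6 lists, in *quintuple*-vs-WT (red, left) and *octuple*-vs-WT (orange, right), with filled symbols for called genes and a black line at the median of each list. In *quintuple* the medians are 2.15 for the 9 genes, 2.69 for other dysfunction response genes and 1.63 for regulators, and between -0.27 and -0.24 for the other 3 lists, while in *octuple* the single filled symbol is *AOX1D*.

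Markers of senescence rose in *quintuple*, and the summed leaf markers were lower there without a call. The 5 leaf photosynthesis markers (*RBCS1A*, *LHCB1.1*, *LHCB2.1*, *PSBO1* and *RCA*) summed to 4018 to 20915 CPM in *quintuple*, 31490 to 55643 in *octuple*, 36946 to 59228 in *epn* and 36639 to 60827 in WT, and 0 of 5 were called in *quintuple*-vs-WT (39.1% of all genes called). In each genotype the lowest library was replicate 3. The 5 senescence markers (*SAG12*, *SAG13*, *NYE1*, *NAP* and *ORE1*) summed to 660 to 900 CPM in *quintuple*, 54.1 to 184 in *octuple*, 16.2 to 34.5 in *epn* and 15.2 to 36.4 in WT. In *quintuple*-vs-WT, where 19.5% of all genes were called higher, 4 of 4 tested rose, led by *SAG13* and *NAP* at 6.87 and 4.00. The senescence sum is mostly *SAG13*, which gave 105266 counts over all 12 libraries. *NYE1* gave 16114, *NAP* 4009, *ORE1* 2677 and *SAG12* only 102. The summed root markers (*COBL9*, *EXPA7*, *CASP1*, *RHD6* and *WOX5*) were at 0.852 CPM or below in every library. The part of tissue makeup or dying tissue in the levels of the 9 genes was not tested.

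Likeness to *AOX1A* was measured by Pearson's r of log2 CPM over the 12 libraries among 17861 genes with a mean of at least 1 CPM. The points share the 4 genotypes, and the 3 *quintuple* libraries lie far from the rest, so r mostly reads that step. The nearest genes were AT1G18470 (r = 0.994), AT2G31800 (0.993), AT4G22740 (0.993), AT1G28260 (0.992) and *RLP54* (AT5G40170, 0.992). AT1G28260 averaged 42.0 ± 3.46 CPM in *quintuple*, 11.6 ± 1.80 in *octuple*, 8.29 ± 0.608 in *epn* and 8.18 ± 0.749 in WT. Among the members r was 0.965 for *NDB2*, 0.941 for *NDA2*, 0.907 for *NAC017*, 0.884 for *AOX1D*, 0.783 for *NAC013*, 0.661 for *UGT74E2* and -0.900 for *UPOX*. Within genotypes, where deviations from the genotype mean were compared, r was 0.477 for *UGT74E2*, 0.336 for *NDA2*, 0.330 for *NDB2*, 0.324 for *AOX1D*, 0.168 for *NAC017*, 0.0585 for *NAC013* and -0.490 for *UPOX*, and 0.673 to 0.792 for the 5 nearest genes.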

How the data were processed

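RNA-seq of 12 libraries, 3 for each of 4 genotypes, was used. The authors extracted total RNA with TRIzol and sequenced it on an Illumina NovaSeq. HISAT2, HTSeq and R 3.2.0 are named in the submitters' processing notes, while the genome build, and whether counting used strand, are not given in the sources used here. The deposited tables hold fragment counts per gene as the authors obtained them, without normalization, and FPKM values that the authors made from those counts, gene length and library total. Lengths recomputed from both tables were within 1% of the RefSeq TAIR10.1 exon lengths for 20167 of 20167 genes, and coordinates are given in TAIR10.1. The 24 files of single samples were identical to the columns of the tables of the series, and each value was used once.

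Counts were tested with edgeR 4.0.16 in R 4.3.3 (quasi-likelihood test, TMM scaling, filterByExpr, Benjamini-Hochberg adjustment over all genes tested, genotype as the term) on the 6 libraries of each comparison, or on 12 for the difference between backgrounds. The scripts were tested on simulated data. The SE is the log2 fold change divided by the square root of the F value. Replicates are described as independent. Alternatives were DESeq2 1.42.0, limma 3.58.1 on log2(FPKM + 1) and log2(FPKM + 0.1), other scaling factors, no filter, all libraries in 1 fit, the replicate number as a block, and each library left out in turn. A fit without replicate 3 of every genotype was added after seeing the data. Deviations from the genotype means correlated at 0.248 to 0.852 for libraries of equal replicate number (18 pairs) and at -0.663 to 0.326 otherwise (36 pairs). The numbers were thus taken to pair the samples in the fits with the block. The main fits and those that left out libraries did not use this pairing.

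Genes named were the 9 members, the mutated genes, up to 2 genes with the largest rise and 2 with the largest fall in *quintuple*-vs-WT among the called genes of each list, and the 5 genes most like *AOX1A*. *NDA1*, *OM66*, *RCD1* and *WRKY15*, and the genes under other observations, were named after their values were seen. The members and lists were chosen with earlier results of these data known. The authors' figures and other assays were not analysed here.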

Additional observations from a re-analysis of the deposited data

Results flagged for a closer look

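For 6 of the 9 genes the effect of the *cbp60* mutations differed between backgrounds by edgeR's test of the difference of *octuple*-vs-*epn* and *quintuple*-vs-WT. On the log2 scale the difference was -1.79 for *AOX1A*, -1.57 for *NDA2*, -1.92 for *NDB2*, -4.12 for *UGT74E2*, -0.85 for *NAC017* and 1.22 for *UPOX*. In the same test 31.7% of all genes differed. *AOX1D* and *NAC013* did not pass this test in edgeR, with or without the block. *AOX1D* passed it with limma on log2(FPKM + 1) and log2(FPKM + 0.1), where the added constant is above its mean FPKM in *epn* and WT.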

How the results depend on the processing

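The alternatives left the main calls of *AOX1A*, *AOX1D*, *NDA2*, *NDB2* and *UGT74E2* in *quintuple*-vs-WT past both thresholds. With the replicate number as a block the calls of the members were the same in every comparison (5 higher and 1 lower in *quintuple*-vs-WT, and 6 for the difference between backgrounds), and the block changed no other call of a member. The single fall in *quintuple*-vs-WT (*UPOX*) became 0 with library size alone and with limma on log2(FPKM + 1) and log2(FPKM + 0.1), and ranged from 0 to 1 over the fits that left out libraries. The single rise in *octuple*-vs-WT (*AOX1D*) became 0 with upper-quartile factors and with limma on log2(FPKM + 1), and was 0 in each fit that left out libraries. The single rise in *octuple*-vs-*epn* (*AOX1D*) became 0 with limma on log2(FPKM + 1), and ranged from 0 to 1 over the fits that left out libraries. The single rise in *octuple*-vs-*quintuple* (*UPOX*) became 0 with limma on log2(FPKM + 1), where 1 added to a level near 1 FPKM shrinks the fold. The 6 genes that differed between backgrounds became 3 without replicate 3 of every genotype. Calls were gained for *NAC017* in *quintuple*-vs-WT and *octuple*-vs-*quintuple* and for *NAC013* in *quintuple*-vs-WT with library size alone and with limma on log2(FPKM + 0.1), and for *NAC017* also on log2(FPKM + 1). The cause of the other changes was not tested.

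Signs turned only for values that were not called. Over the fits that left out 1 library, *octuple*-vs-WT log2 fold changes ranged from -0.125 to 0.363 for *NDA2*, -0.139 to 0.308 for *UPOX* and -0.093 to 0.060 for *NAC017*, and *octuple*-vs-*epn* ones from -0.150 to 0.0067 for *UPOX* and -0.131 to 0.124 for *NAC017*. In *epn*-vs-WT they ranged from -0.042 to 0.119 for *AOX1A*, -0.014 to 0.357 for *NDB2*, -0.068 to 0.374 for *UPOX*, -0.230 to 0.116 for *NAC013* and -0.171 to 0.091 for *NAC017*. Without replicate 3 of every genotype the values that turned were -0.230 for *NDA2* and 0.133 for *NAC017* in *octuple*-vs-WT, 0.069 for *UPOX* in *octuple*-vs-*epn* and -0.031 for *AOX1A* in *epn*-vs-WT. *NAC017* was also at 0.0025 and 0.0034 in *octuple*-vs-WT with limma on log2(FPKM + 1) and log2(FPKM + 0.1), and at -0.011 in *octuple*-vs-*epn* with upper-quartile factors. Of all values of single genes, 686 kept their direction and their side of the threshold, 41 lost it, 10 gained it and 24 changed sign. Upper-quartile factors moved the median of all genes in *quintuple*-vs-WT to -0.15.

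Calls over all genes differed between tools. In *octuple*-vs-WT edgeR called 371 genes, DESeq2 1021 and edgeR with the block 1118, in *octuple*-vs-*epn* 465, 1141 and 1186, and in *epn*-vs-WT 0, 40 and 104. Without *octuple* replicate 1, edgeR called 45 genes against WT and 95 against *epn*. Depth limits *AOX1B* everywhere, *AOX1D* in *epn* and WT, and the precision of *UPOX* and *UGT74E2*.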

Other observations

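Carriers and uncoupling proteins that share the inner membrane with the alternative enzymes did not move as a block. *DIC2*, a dicarboxylate carrier, was at 128, 144 and 41.1 CPM in *quintuple*, 17.5, 17.6 and 11.8 CPM in *octuple*, 10.9, 6.97 and 1.72 CPM in *epn*, and 8.06, 43.0 and 2.22 CPM in WT, and WT replicate 2 reached above the lowest *quintuple* library. It was not called in *quintuple*-vs-WT, at a log2 fold change of 2.55 (SE 1.07, edgeR adjusted p = 0.0814). *DIC3* was at 2.80, 1.26 and 5.44 CPM in *octuple*, against 0.220, 1.08 and 0.831 CPM in *quintuple*, 0.604, 0.960 and 1.62 CPM in *epn* and 0.830, 0.603 and 1.14 CPM in WT. It was called higher in *octuple*-vs-*quintuple*, at 2.17 (SE 0.72, edgeR adjusted p = 0.0444), but not in *octuple*-vs-WT or *octuple*-vs-*epn*, and *epn* replicate 3 lay above the lowest *octuple* library. The uncoupling proteins *UCP1*, *UCP2* and *UCP3* were not called in any of the 5 comparisons, with log2 fold changes in *quintuple*-vs-WT of -0.17, -0.36 and -0.72.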
